A study of Mus musculus with 2 samples.

Results

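The 9 chemokine receptor genes Ccr2, Ccr6, Ccr7, Ccr9, Cxcr3, Cxcr4, Cxcr5, Cxcr6 and Cx3cr1 were followed through single immune cells of the mouse cecum. They were taken by name from a list, and all 9 were among the 55487 gene symbols of the run. The study asks whether nociceptors, pain-sensing neurons that carry the ion channel Trpv1, act on immune cells of the gut. CD45+ cells were sorted from the cecum of 2 Trpv1-ADC mice, meant to have their Trpv1+ neurons activated, and of 2 littermate CTRL mice. All 4 were males aged 101 days, and the labels give AAV at birth into the peritoneum and 7 CNO injections, one every other day, for the pool as a whole, so that the controls are taken to carry both. Of the strains given for the pool, Trpv1-WT.B6 & Trpv1-Cre.B6, none is tied to a mouse, so strain and activation cannot be told apart, and the labels do not name the AAV's promoter or cargo. Numbers 1 and 2 only name the mice.

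Chemokine receptors are G protein-coupled receptors that steer cells along gradients of small secreted proteins, the chemokines. Ccr7 holds naive T cells and mature dendritic cells to lymphoid tissue, and Cxcr5 draws B cells and follicular helper T cells into follicles. Ccr2 brings monocytes from bone marrow and blood into tissue, while Ccr9, whose ligand Ccl25 comes from the small intestine, and Ccr6, whose ligand Ccl20 comes from the epithelium over lymphoid follicles, guide lymphocytes within the gut. In the gut, the same receptors are used to tell freshly arrived, resident and departing cells apart.

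Every per-mouse value below rests on a hashtag, a short DNA barcode on an anti-CD45 antibody, and the 4 barcodes are shown because they assign each cell to its mouse. All letters are capitals because the whole barcode is read.
Trpv1-ADC 1, hashtag 7: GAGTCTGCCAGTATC
Trpv1-ADC 2, hashtag 9: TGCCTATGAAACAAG
CTRL 1, hashtag 1: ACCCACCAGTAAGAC
CTRL 2, hashtag 3: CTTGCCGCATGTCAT
A cell was given to a mouse where its top tag had at least 10 counts and at least 3 times the next. Among the cells kept, the median count of the own tag was 247 in Trpv1-ADC 1 and 362 in Trpv1-ADC 2, against 1083 in CTRL 1 and 555 in CTRL 2. The tag of CTRL 1 was the brightest. HTODemux, a method that sets a background threshold for each tag, called 0.293% and 1.06% of the kept cells of Trpv1-ADC 1 and 2 doublets, against 9.01% and 2.45% of those of CTRL 1 and 2.

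After filtering, 17519 cells remained, 4430 and 4531 from Trpv1-ADC 1 and 2 and 4393 and 4165 from CTRL 1 and 2, with 27586172 to 29905834 UMIs (molecules counted once by a random tag) per mouse and a median of 5553 to 5689 UMIs per cell. The cells fell into 40 clusters, of which those with enough detected markers were joined into 26 named classes, and 17 classes with at least 20 cells in each mouse were tested. No receptor was among the variable genes used for clustering. Fibroblast-like (507) and endothelial or smooth muscle-like cells (122) were found in spite of the CD45 sort. CTRL 1 stood apart in several classes, with 104 follicular helper T cell-like cells where the other mice had 303 to 417, and 12 interferon-signature T cell-like cells where the others had 106 to 123. It had more fibroblast-like cells (199, the others 95 to 113), type 3 gamma delta T cell-like cells (47, the others 17 to 26), natural killer cell or ILC1-like cells (42, the others 17 to 19) and unnamed Retnla-high myeloid cells (67, the others 11 to 27). Intraepithelial-type T cell-like cells formed 6.30% and 4.66% of the Trpv1-ADC mice's cells, against 10.04% and 14.02% of the CTRL mice's.

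In the GRCm38 build the receptor genes lie on 5 chromosomes. Ccr2 (chr9:124101950-124113557, plus strand), Cxcr6 (chr9:123806475-123811760, plus), Ccr9 (chr9:123678439-123784330, plus), Cx3cr1 (chr9:119901616-120069879, minus) and Cxcr5 (chr9:44511787-44561877, minus) share chromosome 9. Cxcr4 lies at chr1:128588199-128592293 (minus), Ccr7 at chr11:99144196-99155077 (minus), Ccr6 at chr17:8236043-8257141 (plus) and Cxcr3 at chrX:101731535-101734269 (minus). All 9 are protein-coding in the GENCODE annotation. Chemokine receptor genes have close relatives, and reads shared between such copies may have been split or dropped by the authors' counting. Promoters of 7 of the 9 matched a RefSeq table of the same build, and those of Ccr2 and Cxcr4 are shown because Ccr2 was read mainly in myeloid and some lymphoid classes and Cxcr4 in nearly all classes. Each runs from 250 bases before to 50 after the RefSeq start, and capitals mark matches to 5 motifs searched on both strands.
Ccr2, chr9:124101933-124102232, plus strand: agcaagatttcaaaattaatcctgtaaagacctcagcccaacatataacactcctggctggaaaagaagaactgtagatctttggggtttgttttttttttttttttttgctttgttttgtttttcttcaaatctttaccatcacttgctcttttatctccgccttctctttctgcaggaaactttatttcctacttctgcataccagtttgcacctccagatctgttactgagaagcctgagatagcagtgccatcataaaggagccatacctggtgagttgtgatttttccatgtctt
Cxcr4, chr1:128592250-128592549, minus strand: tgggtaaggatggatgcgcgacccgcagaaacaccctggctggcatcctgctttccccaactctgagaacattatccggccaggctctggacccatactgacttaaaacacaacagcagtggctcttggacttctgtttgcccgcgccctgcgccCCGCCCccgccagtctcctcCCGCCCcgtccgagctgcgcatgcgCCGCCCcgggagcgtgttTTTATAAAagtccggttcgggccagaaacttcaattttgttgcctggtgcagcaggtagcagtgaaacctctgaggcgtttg
The window of Ccr2 held none of the 5 motifs. Most of that window lies inside the GENCODE gene span given above, which begins at 124101950. It therefore says little of the sequence before the GENCODE start. That of Cxcr4 held 3 matches to the GC box letters GGGCGG, written here as its complement, and a pair of overlapping matches to the TATA letters TATAAA, 1 on each strand. Among 32851 promoters of the same length 35.7% held GGGCGG and 13.6% held TATAAA. The other motifs, the AP-1 letters TGANTCA, the letters TGACG and an NF-kB-type site, were held by 7.8%, 20.8% and 50.8% of all promoters. A match of letters describes the window and is not a measured binding site.

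Levels are given as CPM, UMIs of the gene per 1000000 UMIs of the cells summed, for each mouse. Ccr7, the receptor for Ccl19 and Ccl21, was highest in mature migratory dendritic cell-like cells, with 4284 and 2550 CPM in Trpv1-ADC mice against 4049 and 3175 CPM in CTRL mice, from 68 cells in all. The groups overlapped there. Among the tested classes it was highest in naive CD8 T cell-like cells (median 1004 CPM, 811 to 1109 over the 4 mice) and naive CD4 T cell-like cells (972 CPM, 866 to 1123), whose ranges overlapped each other. Interferon-signature T cell-like cells, too few in CTRL 1 to test, had a median of 841 CPM. B cell-like cells followed at 634 CPM (605 to 651) and regulatory T cell-like cells at 506 CPM (416 to 527), each apart from the tested class above. The 2 naive classes held 29.6% (CD4) and 25.2% (CD8) of the 54419 Ccr7 UMIs.

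Cxcr5, the receptor for Cxcl13, was highest in B cell-like cells, at 210.2 CPM (184 to 236), where 57.2% of its 4332 UMIs lay. Follicular helper T cell-like cells, named without Cxcr5 from markers such as Bcl6, Il21 and Tox2, were the next class, at 89.8 CPM (69.4 to 96.0), clear of the B cells. Cxcr4, the receptor for Cxcl12 that retains cells in bone marrow and follicles, was read widely. Neutrophil-like cells had 768 and 438 CPM in Trpv1-ADC mice against 554 and 874 CPM in CTRL mice, from 102 cells. B cell-like cells had 545 CPM (511 to 573), and follicular helper (443 CPM) and regulatory T cell-like cells (442 CPM) overlapped each other below them.

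Of the myeloid receptors, Ccr2, whose ligands include Ccl2, Ccl7 and Ccl12, stood at 707 CPM (685 to 791) in monocyte-like cells and 573 CPM (519 to 589) in macrophage-like cells, which did not overlap. Of its 10531 UMIs, 25.9% were in the first class and 16.9% in the second. A cluster of 125 unnamed myeloid cells led by Retnla held another 13.4% in 0.714% of the cells, at 830 and 1284 CPM in Trpv1-ADC mice against 948 and 967 CPM in CTRL mice. Among lymphocytes, regulatory T cell-like cells had 234 CPM (143 to 288) and held 14.3% of the Ccr2 UMIs. Type 3 gamma delta T cell-like cells (231 CPM, 156 to 308) and natural killer cell or ILC1-like cells (200.5 CPM, 110 to 297) overlapped with them. Both of these classes were too small to test. Cx3cr1, the fractalkine receptor that marks gut macrophages, reached 321 CPM (296 to 431) in macrophage-like cells and 194 CPM (184 to 196) in monocyte-like cells, and these ranges did not overlap. Neutrophil-like (238 CPM) and mast cell or basophil-like cells (245 CPM, from 24 cells) lay between them.

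Of the receptors of effector and mucosal lymphocytes, Ccr6 was highest in B cell-like cells, at 133 CPM (113 to 149), with 60.8% of its 2518 UMIs, and overlapped there with cycling B cell-like cells at 124 CPM. Effector CD4 (61.9 CPM) and regulatory T cell-like cells (45.9 CPM) were the leading T cells for Ccr6. Ccr9 was highest in naive CD8 T cell-like cells, at 78.3 CPM (56.3 to 95.2), and in intraepithelial-type T cell-like cells at 54.2 CPM (36.9 to 71.6), which overlapped. Cxcr3, the receptor for the interferon-induced ligands Cxcl9 and Cxcl10, was highest in effector CD4 T cell-like cells at 76.1 CPM (50.6 to 104) and in a class too small to test, type 3 gamma delta T cell-like cells. Its 1754 UMIs were spread widely, with 15.7% in memory CD8 T cell-like, 15.6% in ILC3-like and 14.4% in follicular helper T cell-like cells. Cxcr6, the receptor for Cxcl16 found on resident lymphocytes, had 421 and 495 CPM in type 3 gamma delta T cell-like cells in Trpv1-ADC mice, against 376 and 477 CPM in CTRL mice. ILC2-like cells (232 CPM) and ILC3-like cells (189 CPM), innate lymphocytes of the gut wall, came next for Cxcr6.

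**Figure D1:**
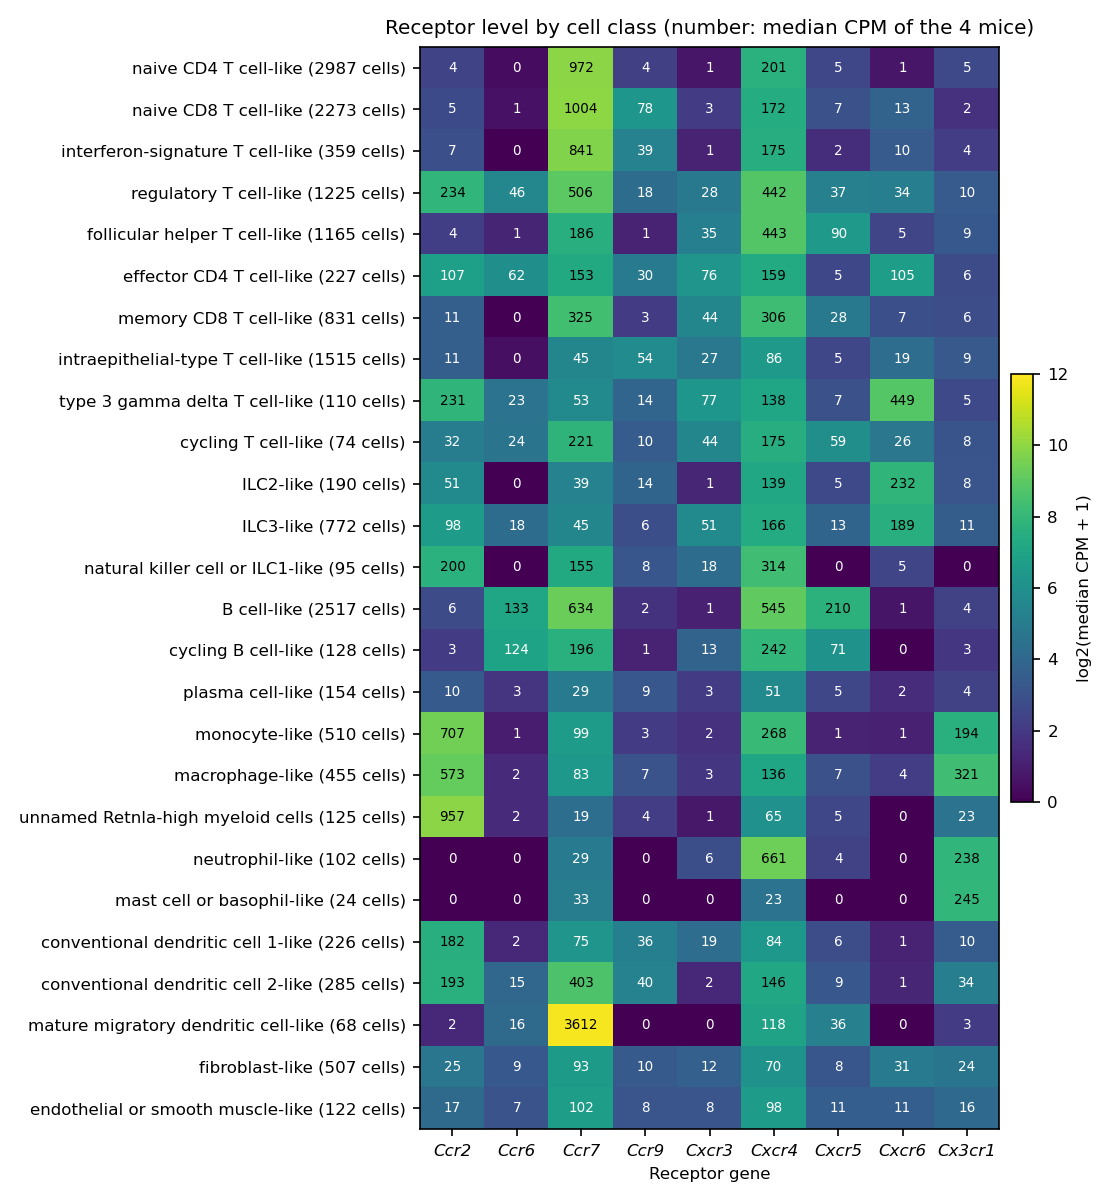
Level of each receptor (columns) in each cell class (rows, with the number of cells), as the median CPM of the 4 mice, printed in each cell of the grid and coloured on a log2(CPM + 1) scale. Ccr7 stands out in naive T cell-like (972 and 1004 CPM) and migratory dendritic cell-like cells. Ccr2 does so in unnamed Retnla-high myeloid (957 CPM) and monocyte-like cells (707 CPM), and Ccr6 (133 CPM) and Cxcr5 together in B cell-like cells.

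Several ligands were read in the same cells or in the non-immune cells that came through the sort. Ccl2, Ccl7 and Ccl12 were highest in macrophage-like cells, at medians of 416, 315 and 270.3 CPM. Cxcl12, the ligand of Cxcr4, was highest in fibroblast-like cells at 890.1 CPM, and Ccl21a, a ligand of Ccr7, in endothelial or smooth muscle-like cells at 1936 CPM. Cxcl16, the ligand of Cxcr6, was highest in mature migratory dendritic cell-like cells at 531 CPM, and Cxcl9, a ligand of Cxcr3, in conventional dendritic cell 1-like cells at 215 CPM.

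Across the 26 named classes, the genes whose log2(CPM + 10) was most like that of each receptor were taken among 8058 genes with at least 50 CPM in a class. These are descriptions over classes that share 1 run and 4 mice. Cxcr6 was most like Tnfrsf25, a death-domain receptor of T cells and innate lymphocytes (Pearson r = 0.94), and Cx3cr1 most like Mitf (r = 0.93) and the haem oxygenase Hmox1 (r = 0.92), the last of which also served to name macrophages. Cxcr4 was most like the clock gene Per1 (r = 0.89) and Ccr7 like Prps1 (r = 0.82). Cxcr3 was most like Tbx21, the T-bet transcription factor (r = 0.78) and Cxcr5 like the B cell gene Cd22 (r = 0.78). Among the 3 genes most like each, Cyp4f16 stood at r = 0.79 for Ccr2 and Mif4gd at r = 0.73 for Ccr6. Ccr9 was most like Cd8a and Itgae (r = 0.68 for each), and Cd22, Cd8a and Itgae also served to name classes. Between receptors, Ccr6 and Cxcr5 were most alike (r = 0.67), and Ccr7 and Cx3cr1 most opposed (r = -0.43).

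Whether the receptors differed between Trpv1-ADC and CTRL mice was then tested within each class, on UMIs summed per mouse, with edgeR's quasi-likelihood test and the Benjamini-Hochberg adjustment over all genes of the class. Fold changes are log2 of Trpv1-ADC over CTRL with the SE. Ccr2 fell in regulatory T cell-like cells, Ccr7 in intraepithelial-type T cell-like cells, where few UMIs of it were read, and Cxcr4 in ILC3-like cells. These 3 were the pairs of receptor and class called at an adjusted p of 0.05, of 153 pairs, of which 50 had too few counts to test and 103 were tested. Over the 17 classes 0.863% of all tests were called, and 0.437% were called as lower. Of the 103 tests 57 had a positive and 46 a negative fold change, with a median of 0.03, and 18 had an unadjusted p under 0.05, as had 9.43% of all tests. Without Trpv1-ADC 1 the count of calls was 9 (2.23% of all tests called), without CTRL 1 it was 6 (0.948%), and without CTRL 2 it was 7 (1.49%).

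**Figure D2:**
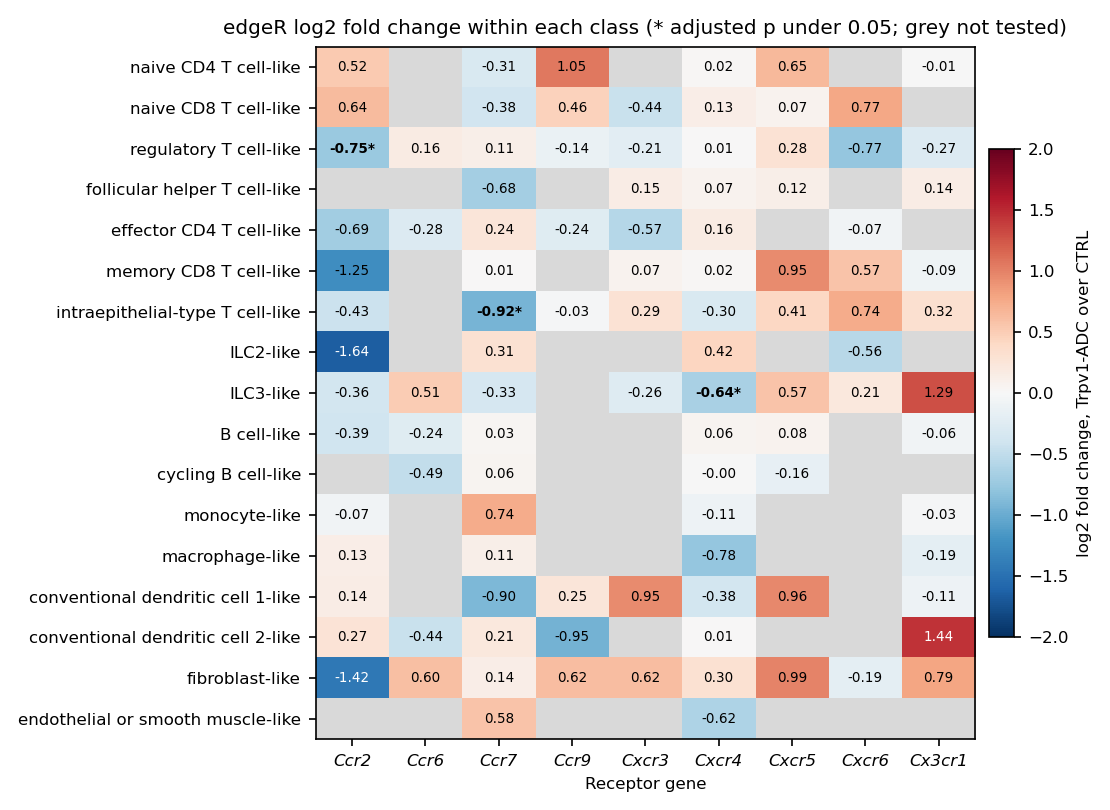
edgeR log2 fold change of Trpv1-ADC over CTRL for each receptor (columns) in each tested class (rows), with an asterisk at an adjusted p under 0.05 and grey where counts were too low to test. The 3 marked pairs are Ccr2 in regulatory T cell-like (-0.75), Ccr7 in intraepithelial-type T cell-like (-0.92) and Cxcr4 in ILC3-like cells (-0.64).

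Regulatory T cell-like cells, named from Foxp3, Il2ra, Ctla4 and other markers of the suppressive T cells that the study's title concerns, held 280 and 338 cells in Trpv1-ADC mice and 298 and 309 in CTRL mice. In them Ccr2 had 281 and 281 UMIs in Trpv1-ADC mice against 498 and 448 in CTRL mice. These were 195 and 143 CPM in Trpv1-ADC mice against 288 and 273 CPM in CTRL mice, and both Trpv1-ADC mice lay below both CTRL mice. The log2 fold change was -0.75 ± 0.13 (SE; edgeR adjusted p = 0.00468). In this class 0.674% of 9638 genes were called, and 1 of the 9 receptors. It was called with each of the 4 mice left out in turn, with fold changes from -0.97 to -0.53. With mice assigned by HTODemux, the levels were 196 and 141 CPM in Trpv1-ADC mice against 304 and 277 CPM in CTRL mice.

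The share of cells with a Ccr2 UMI followed the level. Thinned to 2000 UMIs per cell, 22.3% and 17.5% of regulatory T cell-like cells had one in Trpv1-ADC mice, against 36.2% and 33.3% in CTRL mice. The means were 19.9% ± 3.45 in Trpv1-ADC mice and 34.8% ± 2.03 in CTRL mice (SD, n = 2 each; exact two-sided permutation p = 0.333, the smallest that 2 mice against 2 allow). Unthinned shares were 31.4% and 26.6% in Trpv1-ADC mice against 47.0% and 50.5% in CTRL mice. Naive CD4 T cell-like cells, in which few Ccr2 UMIs were read, had one in 1.25% of cells after thinning, at a median depth of 5491 UMIs per cell against 4978 for regulatory T cell-like cells. Thinning left out 113 and 70 cells of all classes in Trpv1-ADC mice and 261 and 157 in CTRL mice.

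The class was made of 2 clusters, which were also tested apart after the data had been seen. Cluster T7, led by Il10, Lag3, Ctla4 and Foxp3, had 273 and 237 CPM of Ccr2 in Trpv1-ADC mice against 416 and 362 CPM in CTRL mice (log2 fold change -0.62 ± 0.12 SE, edgeR adjusted p = 0.00676, where 1.07% of genes were called). Cluster T10, led by Lrrc32, Tnfrsf4 and Foxp3 among others, had 43.3 and 12.2 CPM in Trpv1-ADC mice against 70.1 and 58.1 CPM in CTRL mice. Its fold change, -1.41 ± 0.41, was not called (adjusted p = 0.363, edgeR, where 0.0605% of genes were called). The share of the class in T7 overlapped between the groups, at 67.1% and 58.0% in Trpv1-ADC mice and 64.4% and 71.2% in CTRL mice. Of marker lists of other cells, monocyte markers (11 of 11 read) summed to 143 and 146 CPM in the class in Trpv1-ADC mice against 121 and 142 CPM in CTRL mice, and were not lower with Ccr2. Markers of mature migratory dendritic cells, led by Samsn1, were lower with it, at 787 and 764 CPM in Trpv1-ADC mice against 965 and 1007 CPM in CTRL mice, as were those of plasma cells, at 898 and 894 CPM in Trpv1-ADC mice against 990.2 and 991 CPM in CTRL mice. A marker was taken as read where the class held any UMI of it. The sums do not by themselves show cells of other kinds. Of 11 such lists 2 had both Trpv1-ADC mice below both CTRL mice and 3 had them above. B cell markers were higher, at 378 and 355 CPM in Trpv1-ADC mice against 253 and 301 CPM in CTRL mice. Their part in the result was not tested.

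Within regulatory T cell-like cells, Ccr2 and Ccr7 were seldom read in the same cell. Of 1201 thinned cells, 323 had a Ccr2 UMI and 417 a Ccr7 UMI, and 43 had both where independent draws over the class would give 112. The ratio of observed to expected was 0.439 and 0.3003 in Trpv1-ADC mice against 0.441 and 0.385 in CTRL mice, under 1 in all 4 mice. The 2 clusters differed in the same way, since the median level of Ccr7 was 317 CPM in T7 and 783 CPM in T10. Among cells without a Ccr7 UMI, 29.8% and 26.1% had a Ccr2 UMI in Trpv1-ADC mice against 42.7% and 43.1% in CTRL mice. Among cells with one, the shares were 9.80% and 5.43% in Trpv1-ADC mice against 14.3% and 13.6% in CTRL mice. Both kinds of cell had less Ccr2 in both Trpv1-ADC mice than in either CTRL mouse. Ccr2 and Cxcr4, by contrast, were read together in 160 cells where 163 were expected, and Ccr7 and Cxcr6 in 10 where 26.0 were expected.

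**Figure D3:**
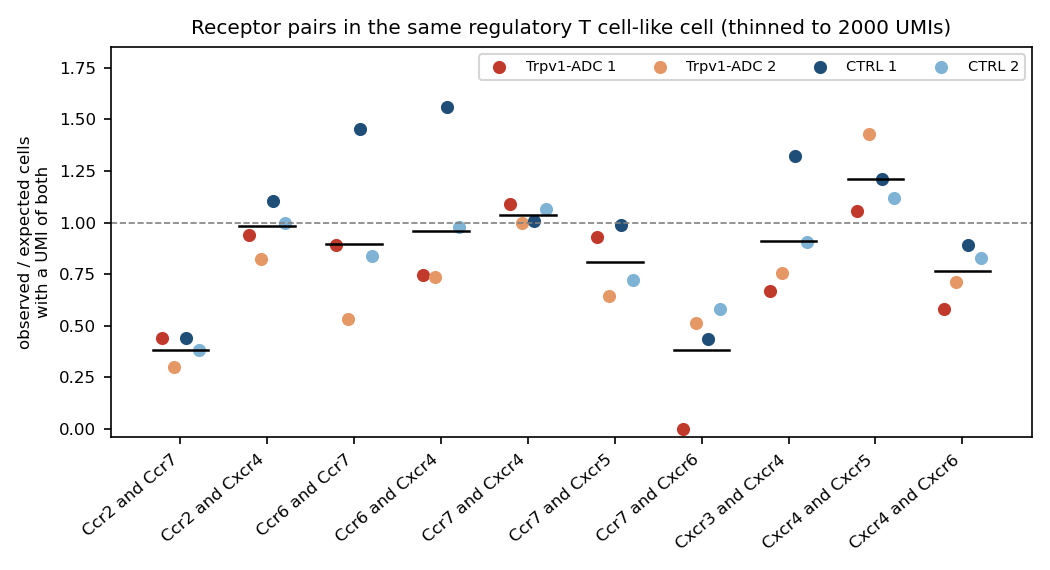
Number of regulatory T cell-like cells with a UMI of both receptors over the number expected from independent draws, in cells thinned to 2000 UMIs, with a point per mouse, a bar for all 4 mice together and a dashed line at 1. Ccr2 with Ccr7 lies at 0.3003 to 0.441 in the 4 mice, while Ccr2 with Cxcr4 has an overall ratio of 0.983.

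Little Ccr7 was read in intraepithelial-type T cell-like cells, a class that carries Gzma, Gzmb, Cd160, Itgae and other genes of the lymphocytes of the gut lining. There were 33 and 43 UMIs in 279 and 211 cells of Trpv1-ADC mice, against 129 and 182 UMIs in 441 and 584 cells of CTRL mice. These were 23.4 and 37.8 CPM in Trpv1-ADC mice against 52.3 and 56.3 CPM in CTRL mice, with no overlap. The log2 fold change was -0.92 ± 0.21 (SE; edgeR adjusted p = 0.0186), in a class in which 8.27% of 10350 genes were called and 1 of 8 receptors tested. With HTODemux the levels were 23.4 and 36.6 CPM in Trpv1-ADC mice against 42.2 and 37.7 CPM in CTRL mice, and the call was lost (-0.49 ± 0.23, edgeR adjusted p = 0.198). It was also lost without Trpv1-ADC 1 (edgeR adjusted p = 0.0855) and without CTRL 2 (0.0531).

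The share of these cells with a Ccr7 UMI after thinning was 4.04% and 5.24% in Trpv1-ADC mice against 6.38% and 5.19% in CTRL mice, which overlapped. It lay below the shares in fibroblast-like cells (12.7%, median depth 12616 UMIs against 5089) and endothelial or smooth muscle-like cells (16.9%) of the same run, cells that should lack the gene, and whether these UMIs came from the T cells themselves was not tested. Cluster T3, led by Cd7, Klrd1 and Cd160, had 22.7 and 27.0 CPM in Trpv1-ADC mice against 53.3 and 51.1 CPM in CTRL mice (-1.13 ± 0.25, edgeR adjusted p = 0.0113, where 6.44% of genes were called). In cluster T9, led by Gzma and Ccl5, the fold change was -0.45 ± 0.33 (edgeR adjusted p = 0.547, where 2.57% were called). The share of the class in T3 did not overlap between the groups, at 74.9% and 67.8% in Trpv1-ADC mice against 62.8% and 61.5% in CTRL mice. What this mix did to values over the whole class was not tested. Monocyte markers (11 of 11 read, led by Plac8) moved with Ccr7 in this class, at 250.4 and 256 CPM in Trpv1-ADC mice against 347 and 346 CPM in CTRL mice. Markers of mature migratory dendritic cells, the class with the highest Ccr7, moved with it too, at 245 and 194 CPM in Trpv1-ADC mice against 316 and 314 CPM in CTRL mice, with 10 of 10 read and Samsn1 leading. Such sums do not by themselves show cells of other kinds, and Ly6c2 of the monocyte list also served to name memory CD8 T cell-like cells. Of 11 lists 5 had both Trpv1-ADC mice below both CTRL mice and 3 had them above. Their part in the result was not tested. Naive CD4 T cell markers overlapped, at 1886 and 1871 CPM in Trpv1-ADC mice against 1981 and 1834 CPM in CTRL mice. That list was led by Cd3e, which also served to name this class, so its sum cannot tell naive T cells from the class's own cells.

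ILC3-like cells were named from Il22, Il23r, Kit and related genes of the interleukin 22-producing innate lymphocytes. Ncr1, a natural killer cell or ILC1 marker, was also among their leading genes, and Tbx21 was highest in this class (247.9 CPM). They had 157 and 176 Cxcr4 UMIs in Trpv1-ADC mice against 247 and 292 in CTRL mice. The levels were 138 and 127 CPM in Trpv1-ADC mice against 194 and 221 CPM in CTRL mice, again apart. The log2 fold change was -0.64 ± 0.14 (SE; edgeR adjusted p = 0.0489), just inside the threshold, where 0.88% of 9209 genes were called and 1 of 8 receptors. The call held in 3 of 13 alternatives, with fold changes from -0.75 to -0.54 and adjusted p up to 0.266. Of the 4 mice, it held without Trpv1-ADC 1 and was lost without Trpv1-ADC 2 (edgeR adjusted p = 0.0521), CTRL 1 (0.0605) or CTRL 2 (0.266). With HTODemux it held, at 137 and 126 CPM in Trpv1-ADC mice against 194 and 211 CPM in CTRL mice (edgeR adjusted p = 0.0313).

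Thinned to 2000 UMIs, 17.8% and 15.3% of ILC3-like cells of Trpv1-ADC mice had a Cxcr4 UMI, against 24.3% and 29.5% of those of CTRL mice. Fibroblast-like cells had one in 11.4%. Thinned to 1000 UMIs the shares overlapped, at 12.7% and 10.2% in Trpv1-ADC mice against 12.02% and 13.8% in CTRL mice. Monocyte markers moved the same way in this class, at 194 and 184 CPM in Trpv1-ADC mice against 288 and 455 CPM in CTRL mice, with 10 of 11 read, Plac8 leading and Chil3 at 0. So did macrophage markers, at 82.7 and 86.8 CPM in Trpv1-ADC mice against 138 and 102 CPM in CTRL mice, with 12 of 13 read and Cd163 at 0. Markers of mature migratory dendritic cells had 683 and 678 CPM in Trpv1-ADC mice against 811 and 831 CPM in CTRL mice, and those of conventional dendritic cells of type 2 had 229 and 235 CPM in Trpv1-ADC mice against 281 and 329 CPM in CTRL mice. Here too, the sums do not by themselves show cells of other kinds. With plasma cell, neutrophil and fibroblast markers, 7 of 11 lists had both Trpv1-ADC mice below both CTRL mice, and 0 had them above. Their part in the result was not tested.

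**Figure D4:**
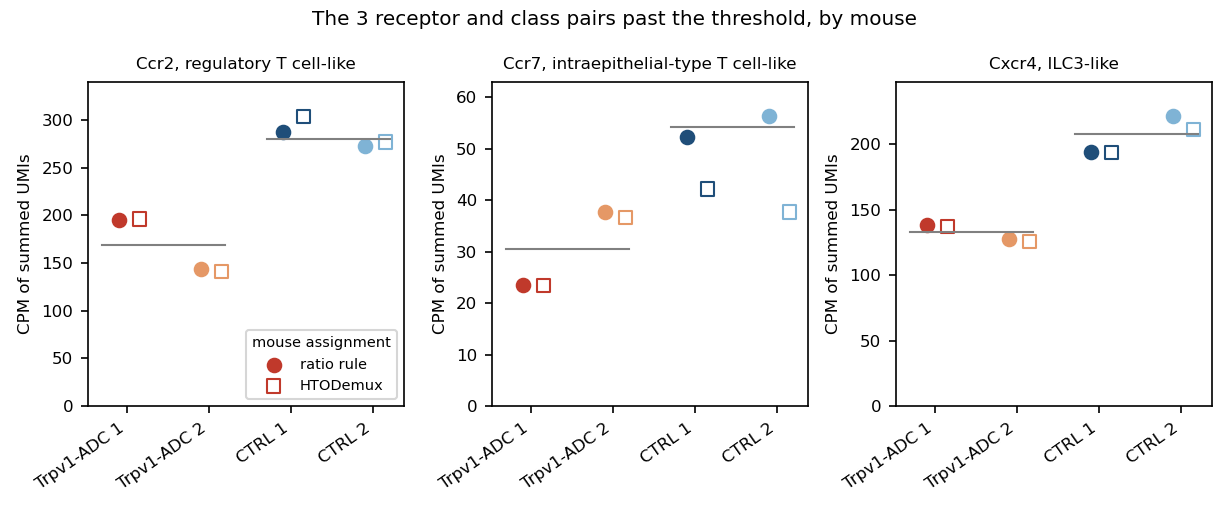
CPM of the 3 called pairs of receptor and class in each mouse, with Trpv1-ADC mice on the left and CTRL mice on the right, filled points for the tag ratio rule, open squares for HTODemux and a line at the mean of 2 mice under the ratio rule. Both Trpv1-ADC mice lie below both CTRL mice in each panel, but for Ccr7 under HTODemux the groups come close, at 23.4 and 36.6 CPM in Trpv1-ADC mice against 42.2 and 37.7 CPM in CTRL mice.

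Whether a change was particular to its class was tested as the fold change in that class minus the mean of the other classes, in 1 edgeR fit over the 17 classes with the mouse as a block. That mean gave each other class equal weight, also where the receptor had too few counts to be tested alone. For Ccr2 these were cycling B cell-like, follicular helper T cell-like and endothelial or smooth muscle-like cells. The difference was -0.18 ± 0.35 (SE) for Ccr2 in regulatory T cell-like cells (edgeR adjusted p = 1), and it was 0.016 without Trpv1-ADC 1 and 0.014 without Trpv1-ADC 2. For Ccr7 in intraepithelial-type T cell-like cells it was -0.93 ± 0.52 (edgeR adjusted p = 0.597), in a test that called 0.991% of 14129 genes, against 0.0% for the other two classes. For Cxcr4 in ILC3-like cells it was -0.55 ± 0.20 (edgeR adjusted p = 0.805). None of the 3 passed, so the data do not show that these changes were larger than in other classes. In the tested classes where Ccr2 was highest it gave log2 fold changes of -0.07 (monocyte-like) and 0.13 (macrophage-like), neither of them called. Of the 14 classes tested for Ccr2, 9 had a negative and 5 a positive fold change. Larger falls than in regulatory T cell-like cells, none called, were read in classes with less Ccr2. They were -1.64 in ILC2-like, -1.42 in fibroblast-like and -1.25 in memory CD8 T cell-like cells. Of the 17 classes tested for Cxcr4, 7 had a negative and 10 a positive fold change. Its largest fall, not called, was -0.78 in macrophage-like cells, at 107 and 100 CPM in Trpv1-ADC mice against 165 and 194 CPM in CTRL mice.

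Ccr7 did not pass in the naive T cell-like classes, and the migratory dendritic cell-like cells were too few to test. In naive CD4 T cell-like cells it had 899 and 866 CPM in Trpv1-ADC mice against 1046 and 1123 CPM in CTRL mice (-0.31 ± 0.08 SE, edgeR adjusted p = 0.102, where 0.209% of genes were called). In naive CD8 T cell-like cells it had 916 and 811 CPM in Trpv1-ADC mice against 1092 and 1109 CPM in CTRL mice (-0.38 ± 0.08, edgeR adjusted p = 0.174, where 0.0661% were called). Both Trpv1-ADC mice lay below both CTRL mice in each class. Each was called in 3 of 13 alternatives. Without Trpv1-ADC 1 the edgeR adjusted p was 0.001004 for CD4 and 0.00282 for CD8, and without the low-count filter it was 0.0199 and 0.0217. Each class joined 2 clusters whose mix differed: cluster T4, with a median of 679 CPM of Ccr7, made up 35.2% and 52.0% of naive CD4 T cell-like cells in Trpv1-ADC mice against 10.7% and 23.4% in CTRL mice. Within T0, the other CD4 cluster, Ccr7 stood at 1029 and 1046 CPM in Trpv1-ADC mice against 1091 and 1214 CPM in CTRL mice. Cluster T5, at 756 CPM, made up 38.4% and 58.2% of naive CD8 T cell-like cells in Trpv1-ADC mice against 8.18% and 33.0% in CTRL mice. Within T1, the other CD8 cluster, the values were 1014 and 897 CPM in Trpv1-ADC mice against 1134 and 1206 CPM in CTRL mice. Conventional dendritic cell 1-like cells had 53.7 and 56.2 CPM of Ccr7 in Trpv1-ADC mice against 93.6 and 110 CPM in CTRL mice (-0.90 ± 0.23, edgeR adjusted p = 0.0880, where 0.936% were called). This was called without CTRL 1 (-1.04, edgeR adjusted p = 0.0298) and was -0.24 with only tag doublets removed.

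Cxcr6 gave opposite signs in 2 T cell classes, neither called, and the difference between them was not tested. In intraepithelial-type T cell-like cells it had 21.3 and 34.2 CPM in Trpv1-ADC mice against 14.998 and 16.1 CPM in CTRL mice (0.74 ± 0.27 SE, edgeR adjusted p = 0.112), and in cluster T3 alone, tested after the data had been seen, 13.2 and 29.6 CPM in Trpv1-ADC mice against 8.35 and 4.60 CPM in CTRL mice (1.63 ± 0.47, edgeR adjusted p = 0.0472). In regulatory T cell-like cells it had 32.0 and 22.4 CPM in Trpv1-ADC mice against 37.0 and 54.2 CPM in CTRL mice (-0.77 ± 0.23, edgeR adjusted p = 0.164). Single mice moved both: in the first class the fold change was 1.01 without Trpv1-ADC 1 (edgeR adjusted p = 0.0395) and 0.40 without Trpv1-ADC 2. In regulatory T cell-like cells it was -1.02 without Trpv1-ADC 1 and -1.03 without CTRL 1 (edgeR adjusted p = 0.00921 and 0.0189), against -0.51 without Trpv1-ADC 2 and -0.48 without CTRL 2. Ccr6, Ccr9, Cxcr3, Cxcr5 and Cx3cr1 had no call in any of the 7, 8, 9, 11 and 12 classes in which each was tested, with the lowest adjusted p (edgeR) for Cxcr5 at 0.233. In B cell-like cells, Ccr6 had 127 and 113 CPM in Trpv1-ADC mice against 139 and 149 CPM in CTRL mice, which did not overlap, and Cxcr5 had 236 and 193 CPM in Trpv1-ADC mice against 184 and 228 CPM in CTRL mice, which did. Ccr9 in naive CD8 T cell-like cells had 95.2 and 83.4 CPM in Trpv1-ADC mice against 56.3 and 73.2 CPM in CTRL mice, without overlap. Cluster T5, with Ccr9 among its leading genes, made up 38.4% and 58.2% of this class in Trpv1-ADC mice against 8.18% and 33.0% in CTRL mice. The part of this mix in the Ccr9 values was not tested. Cx3cr1 in macrophage-like cells overlapped, at 296 and 341 CPM in Trpv1-ADC mice against 302 and 431 CPM in CTRL mice.

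The rest of the pathway was read from lists in the classes with a called receptor. Of the 13 ligands, 4 were tested in regulatory T cell-like, 2 in intraepithelial-type T cell-like and 5 in ILC3-like cells, and none was called. Of the 22 signalling and desensitisation genes, 20, 21 and 20 were tested in the same classes, and Rgs16, which shortens G protein signals, rose in 2 classes. It had 45.9 and 53.0 CPM in Trpv1-ADC mice against 23.7 and 23.7 CPM in CTRL mice in regulatory T cell-like cells (1.06 ± 0.21, edgeR adjusted p = 0.0182). In intraepithelial-type T cell-like cells it had 27.0 and 46.5 CPM in Trpv1-ADC mice against 12.2 and 19.5 CPM in CTRL mice (1.09 ± 0.30, edgeR adjusted p = 0.0417). These were 1 of 20 and 1 of 21 tested, beside 0.674% and 8.27% of all genes called in the 2 classes. The median fold change of the signalling list was 0.01 in regulatory T cell-like and 0.06 in intraepithelial-type T cell-like cells, beside 0.00 over all genes of each.

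Summed over all sorted cells, where a level mixes how many cells of each class there are with how much each holds, edgeR called 0 of the 9 receptors, with 0.245% of 18783 genes called. At an unadjusted p under 0.05 there were 3, beside 18.2% of all genes, and DESeq2 called 1, with 3.72% of genes called. Ccr2 was that one, with 78.1 and 67.9 CPM in Trpv1-ADC mice against 126 and 92.4 CPM in CTRL mice (-0.57 ± 0.17 SE, edgeR adjusted p = 0.204; DESeq2 adjusted p = 0.0183). It was -0.33 without CTRL 1 and -0.77 without CTRL 2, called in neither. Ccr7 had 501 and 506 CPM in Trpv1-ADC mice against 477 and 405 CPM in CTRL mice (0.21 ± 0.08, edgeR adjusted p = 0.258). Of Ccr2-rich classes, monocyte-like cells formed 2.33% and 1.74% of cells in Trpv1-ADC mice against 4.23% and 3.41% in CTRL mice, and the unnamed Retnla-high cells 0.451% and 0.243% in Trpv1-ADC mice against 1.53% and 0.648% in CTRL mice. Macrophage-like cells, at 2.80% and 1.70% in Trpv1-ADC mice against 4.05% and 1.82% in CTRL mice, and regulatory T cell-like cells, at 6.32% and 7.46% in Trpv1-ADC mice against 6.78% and 7.42% in CTRL mice, overlapped. Of Ccr7-rich classes, the share of naive CD8 T cell-like cells was 14.04% and 18.8% in Trpv1-ADC mice against 10.9% and 7.78% in CTRL mice.

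The levels were then recomputed with every class given its mean share over the 4 mice. Ccr2 averaged 94.7 ± 5.81 CPM in Trpv1-ADC mice and 92.9 ± 3.31 CPM in CTRL mice (SD, n = 2 each; exact permutation p = 1), so that the gap seen over all sorted cells was not there at equal shares. Ccr7 turned round, at 450 ± 30.9 CPM in Trpv1-ADC mice and 513 ± 17.2 CPM in CTRL mice, with no overlap (exact permutation p = 0.333, the smallest possible). Ccr6 had 21.1 and 20.3 CPM in Trpv1-ADC mice against 22.0 and 24.0 CPM in CTRL mice, also apart. The other 6 receptors overlapped between the groups.

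**Figure D5:**
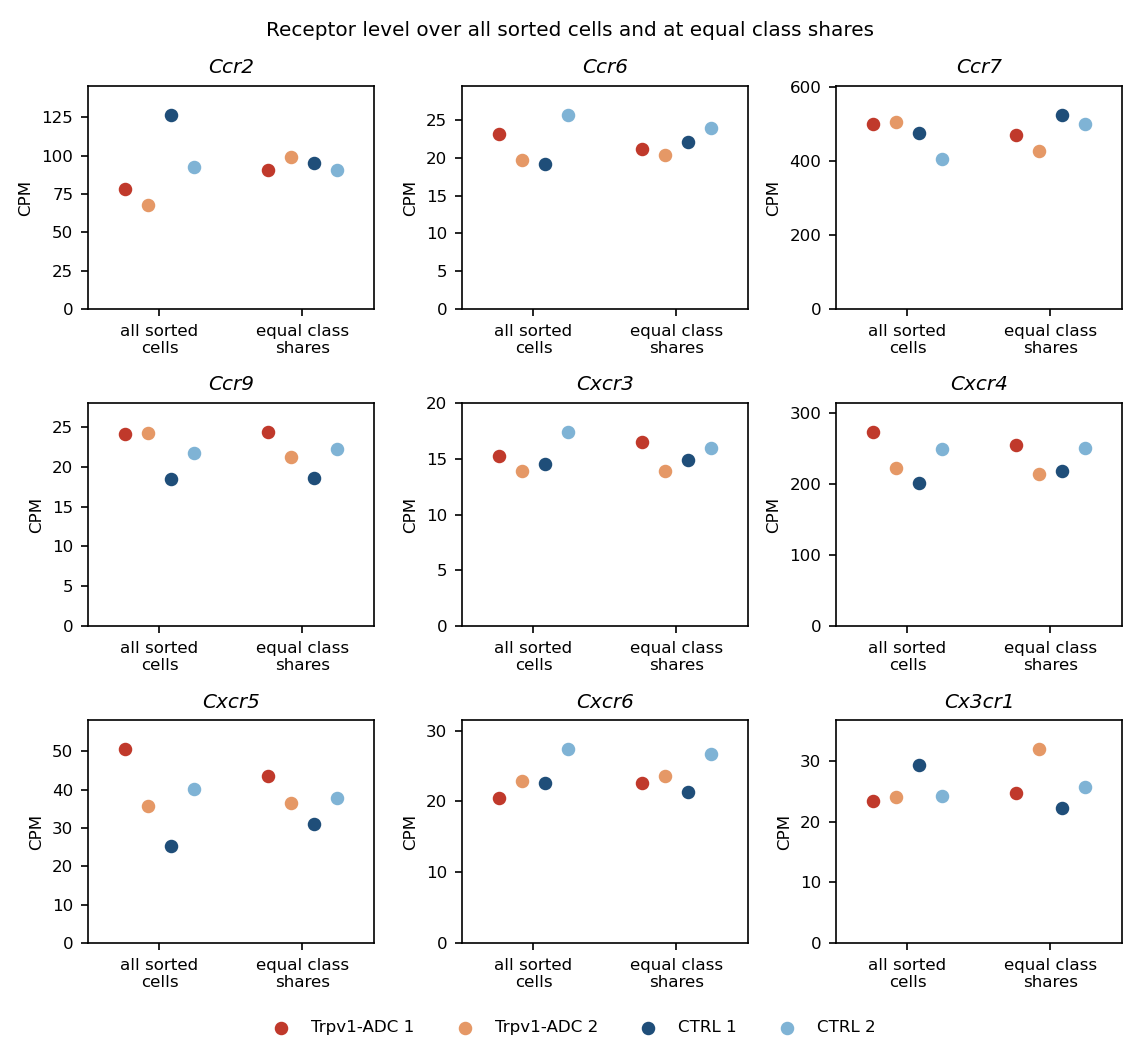
CPM of each receptor per mouse over all sorted cells (left of each panel) and with every class at its mean share over the 4 mice (right), with a point per mouse, Trpv1-ADC mice left of CTRL mice. For Ccr2 the groups are apart on the left, at 78.1 and 67.9 CPM in Trpv1-ADC mice against 126 and 92.4 CPM in CTRL mice, and overlap on the right; for Ccr7 the order of the groups turns round.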

How the data were processed

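Sorted cells of 4 mice went through 1 droplet run. The deposited matrices hold raw counts, UMIs per gene and tag counts per barcode; the submitters' processing notes name Cell Ranger, Seurat and mm10 without versions, and the labels give both 3' and 5' chemistry. Annotation release and barcode calling are not given in the sources used here. Barcodes with at least 500 UMIs, 200 genes and at most 10% mitochondrial UMIs passed (22729 of 23063). The tag rule left 19571 singlets, tag doublets (3105) and untagged cells (53) were dropped, and Scrublet (scanpy 1.11.5, score threshold 0.375) removed 2052 more, having called 43.7% of tag doublets. HTODemux was run in Seurat 5.3.0. Cells were clustered by Leiden (leidenalg 0.10.2, 2000 variable genes, 30 components, 15 neighbours, resolution 1), and clusters were named from marker lists, with 3 groups left unnamed. Summed counts per mouse and class were tested with edgeR 4.0.16 (TMM, filterByExpr, robust fit), with DESeq2 1.42.0 as an alternative, in R 4.3.3. The procedure was tested on simulated data for each class and for all sorted cells. It recovered 1.54% to 40.6% of 1.5-fold, 3.45% to 77.4% of 2-fold and 72.4% to 96.8% of 4-fold changes. A change of 1.5-fold or 2-fold could thus go uncalled. Shares were compared in cells thinned to 2000 UMIs. Intervals and depth cover counting error only. The p-values of edgeR and DESeq2 rest on the spread between 2 mice a group, with each gene's spread drawn toward a trend over all genes tested. They do not measure the spread of that gene alone.

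The members and lists were chosen with earlier results of these data known. Named were the 9 receptors, called members of 3 pathway lists (at most 4 per list) in classes with a called receptor, and up to 3 genes most like each receptor, of which the text gives 1 or 2. Values of some genes that this rule names are not reported here. Alternatives were DESeq2, no low-count filter, a non-robust fit, a replicate block, leaving out each mouse, HTODemux, a tag ratio of 5, removing tag doublets alone, a stricter cell filter, Leiden resolution 2, other thinning depths and other class weights.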

Additional observations from a re-analysis of the deposited data

Results flagged for a closer look

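Of the 15 hashtags in the deposited matrix, 11 are assigned to no mouse by the labels, and together they held 22446 tag counts, or 0.127% of all tag counts. This is signal in data that no comparison above uses. Groups of 2 mice are too small for a check of single outlying samples.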

How the results depend on the processing

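The count of called pairs of receptor and class was 3 and became 1 with DESeq2, 9 without the low-count filter and 1 with only tag doublets removed, and lay between 4 and 9 with each mouse left out. With the replicate number as a block it was 5 within classes and 1 over all sorted cells, where the genes called went to 473 against 46 without the block. Mice with the same number did not deviate together (correlation -0.093 to 0.061 over the classes and all sorted cells), so the numbers do not pair them. Over all sorted cells DESeq2 also called 1 receptor where edgeR called 0. Ccr2 in regulatory T cell-like cells was called in 14 of 15 alternatives, with cluster T10 the exception. Of 131 alternative values for 10 single pairs, 100 kept their side of the threshold, 18 lost and 13 gained a call, and none changed sign. Ccr7 in intraepithelial-type T cell-like cells was not called with DESeq2 (adjusted p = 0.0893), a tag ratio of 5 (edgeR, 0.0750) or only tag doublets removed (edgeR, 0.222). At equal class shares the Cxcr4 difference was 0.71 CPM and changed sign to -1.03 CPM with the CTRL mice's shares. The difference of the Ccr2 effect between classes lay between -0.33 and 0.016 with each mouse left out. Causes of these shifts were not tested. With 2 mice a group, no permutation p could pass, and receptors of low counts (50 pairs) could not be tested.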

Other observations

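In B cell-like cells, in which Ccr7, Cxcr4 and Cxcr5 were all read, pairs of these receptors fell in the same cell about as often as independent draws would give, with ratios of 0.998 to 1.05. In ILC3-like cells of the 4 mice pooled, Ccr2 and Cxcr6 were read together more often than that (ratio 1.25). Ccr2 and Cxcr4 were read together less often (0.756). For Ccr2 and Cxcr6 the ratio was 1.34 and 1.197 in Trpv1-ADC mice against 0.8511 and 1.382 in CTRL mice. CTRL 1 thus went the other way. For Ccr2 and Cxcr4 it was 0.979 and 0.8347 in Trpv1-ADC mice against 0.9498 and 0.4634 in CTRL mice. It was under 1 in each mouse but much the lowest in CTRL 2. In follicular helper T cell-like cells Ccr7 and Cxcr5 were read together in 19 cells where 27.5 were expected, but the ratio was 0.521 and 1.13 in Trpv1-ADC mice against 1.124 and 0.361 in CTRL mice, so the mice did not share a direction. These are values over cells of 4 mice, with no test.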
